A study of Mus musculus with 4 samples.

Results

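The 10 genes described here encode transcription factors that set and hold the identity of the alveolar epithelium, namely Nkx2-1, Cebpa, Foxa1, Foxa2, Gata6, Elf3, Elf5, Foxp1, Foxp2 and Grhl2. They were taken by symbol from a table of 40092 gene rows, in which each of them has 1 row, and all 10 were among the 16661 genes that passed the filter on low counts. RNA was sequenced from GFP+ alveolar type II (AT2) cells that had been sorted from mouse lung on day 14 after bleomycin, a drug that injures the alveolar epithelium and leads to fibrosis. Ctrl animals carried Alkbh5 flox/+, Sftpc-CreERT2 and Rosa26-mTmG, and their A5-CKO littermates carried Alkbh5 flox/flox with the same Cre and reporter. There were 2 libraries of each genotype, and every animal had received tamoxifen, so both groups share the Cre, the reporter, the drug and the injury, and Ctrl has 1 floxed allele. The Cre is driven from Sftpc, so GFP marks cells that had expressed Sftpc when tamoxifen was given, together with their descendants, whatever those cells had become by the time of the sort. Per the study's methods the mice were on a C57BL/6 background. The labels give no age and do not say that the libraries came from separate animals, so the p-values measure only the spread between these libraries. Alkbh5 is the enzyme that removes the m6A mark from RNA, and the comparison asks how its loss in AT2 cells bears on their RNA after injury.

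Nkx2-1 is a homeobox factor that is needed to form and keep the lung epithelium, and it drives surfactant genes in AT2 cells while also acting in AT1 cells. Foxa1, Foxa2 and Gata6 are endoderm factors that work with it at surfactant promoters, and Cebpa is a leucine zipper factor that promotes AT2 maturation, lipid synthesis and AT2 identity. Elf3 and Elf5 are epithelial ETS factors, Foxp1 and Foxp2 are forkhead repressors of the developing lung, and Grhl2 is a grainyhead factor that keeps up cell junction genes.

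Across genotypes Ctrl 1 and A5-CKO 2 were the closest pair of libraries, closer than either pair of one genotype (chi-square over its degrees of freedom 99.1, against 120 for Ctrl and 111 for A5-CKO). Libraries held from 18144865 to 20811757 counts, and a count of 3 corresponded to 0.128 to 0.177 CPM, the normalised unit used throughout (counts relative to the TMM-scaled library size). Where 4 values follow each other they are those of Ctrl 1 and 2 and then of A5-CKO 1 and 2. Alkbh5, the targeted gene, was at 81.7 and 152 CPM in Ctrl 1 and 2 and at 19.3 and 36.6 CPM in A5-CKO 1 and 2. With edgeR's quasi-likelihood test its log2 fold change (A5-CKO over Ctrl) was -2.06, with an unadjusted p of 0.00279 and an adjusted p of 0.528. That adjusted p was the smallest of all genes tested. It was shared by genes of unlike unadjusted p, such as Elf3 at 0.0658, so it does not rank the genes that have it. The test called 0 of 16661 genes at an adjusted p under 0.05 (0%), with 1530 genes at an unadjusted p under 0.05. DESeq2 with default filtering called 59 of 15306 genes, which is 0.385%. None of the 10 factors was therefore called by edgeR, and differences are given below as values.

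The promoters of the 3 factors with the highest levels per kilobase in Ctrl are shown to set their composition and motifs beside their levels. Each run is the 250 bases before the RefSeq start site on the gene's own strand (GRCm38.p6), Cebpa at chr7:35119043-35119292 (+), Nkx2-1 at chr12:56536909-56537158 (-) and Elf3 at chr1:135258473-135258722 (-). Capitals mark matches on either strand to the letters TATAAA of the core promoter element, to CCAAT of the upstream element named after it, or to a site for one of the families. The letters searched were CAAGTG and also CTCAAG for NKX2 factors, TGTTTAC and also TGTTTGC for forkhead factors, TTGCNNAA for the family of Cebpa, AGATAA for the family of Gata6, CCGGAAG for ETS factors and AACCNGTT for grainyhead factors.
Cebpa: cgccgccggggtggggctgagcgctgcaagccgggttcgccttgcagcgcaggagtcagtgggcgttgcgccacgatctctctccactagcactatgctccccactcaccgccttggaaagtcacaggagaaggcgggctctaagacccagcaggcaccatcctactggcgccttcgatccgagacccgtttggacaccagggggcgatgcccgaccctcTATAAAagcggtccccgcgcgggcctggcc
Nkx2-1: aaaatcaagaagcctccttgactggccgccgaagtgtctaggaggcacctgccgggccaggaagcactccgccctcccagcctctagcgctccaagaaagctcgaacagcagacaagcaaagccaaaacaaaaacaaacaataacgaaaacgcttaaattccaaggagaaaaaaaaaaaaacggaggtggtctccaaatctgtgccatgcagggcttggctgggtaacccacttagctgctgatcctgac
Elf3: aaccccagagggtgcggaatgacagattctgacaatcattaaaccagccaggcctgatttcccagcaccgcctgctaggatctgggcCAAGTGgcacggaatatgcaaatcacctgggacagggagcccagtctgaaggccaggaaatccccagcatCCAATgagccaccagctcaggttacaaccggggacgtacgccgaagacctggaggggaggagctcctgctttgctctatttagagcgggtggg

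The Cebpa promoter holds a TATA box 30 bases before the start, a motif present in 12.4% of 32851 RefSeq promoters over the same length. Its GC content of 66.4% with 22 CG dinucleotides is above the 52.4% median of all promoters. The Elf3 promoter, at 57.2% GC, holds an NKX2 site 163 bases and a CCAAT box 93 bases before the start, and 22.6% and 33.8% of all promoters hold these motifs. The Nkx2-1 promoter, at 50.8% GC, holds none of the capitalised motifs. A GC box (GGGCGG on either strand, left in lower case) lies 182 bases before its start, and 32.7% of all promoters hold one. Over all promoters the forkhead, C/EBP, GATA, ETS and grainyhead sites are present in 7.3%, 9.6%, 10%, 6.9% and 1.8%. The 12 promoters examined belong to 7 of the 10 factors, with none for Gata6, Foxp2 and Grhl2. Chromosome 18, which holds Gata6, was left out of them. A match describes letters in this window and is not evidence of binding.

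Levels per kilobase of merged exon separated the factors widely in Ctrl. Cebpa was highest at 489 ± 131 CPM per kb (SD, n = 2), followed by Nkx2-1 at 200 ± 77.1, Elf3 at 79.3 ± 12.0, Foxa2 at 47.7 ± 9.36, Foxa1 at 28.5 ± 13.98 and Elf5 at 13.95 ± 2.63 CPM per kb. Gata6 at 9.44 ± 3.15, Foxp1 at 7.96 ± 4.64 and Grhl2 at 6.197 ± 3.01 CPM per kb followed, and Foxp2 was lowest at 0.645 ± 0.191. In this order only the neighbours Gata6, Foxp1 and Grhl2 overlapped between libraries.

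In A5-CKO the order kept its lower part, but Cebpa no longer stood above Nkx2-1. Nkx2-1 was at 167 ± 67.3 and Cebpa at 166 ± 17.9 CPM per kb (SD, n = 2), and these overlapped. Elf3 at 48.4 ± 12.2, Foxa2 at 33.9 ± 2.03 and Foxa1 at 22.9 ± 6.30 CPM per kb came next without overlap. Elf5 at 9.31 ± 2.30, Gata6 at 8.79 ± 1.59, Foxp1 at 6.68 ± 1.45 and Grhl2 at 6.04 ± 1.94 CPM per kb formed a run of overlapping neighbours. Foxp2 was again lowest, at 1.54 ± 0.884 CPM per kb, clear of Grhl2.

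The factors lie on 7 chromosomes (RefSeq, GRCm38.p6), with exon numbers from the longest annotated transcript. Nkx2-1 spans 56531935 to 56536908 on chromosome 12 (- strand, 3 exons), and Foxa1 spans 57540628 to 57548029 on the same chromosome and strand (2 exons). Elf5 at 103412098 to 103450989 (+ strand, 4 exons) and Foxa2 at 148042877 to 148046969 (- strand, 3 exons) lie on chromosome 2. Elf3 spans 135253574 to 135258472 on chromosome 1 (- strand, 9 exons) and Grhl2 spans 37232821 to 37363569 on chromosome 15 (+ strand, 16 exons). Foxp1 and Foxp2 are both on chromosome 6, Cebpa is on chromosome 7 and Gata6 on chromosome 18.

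**Figure D1:**
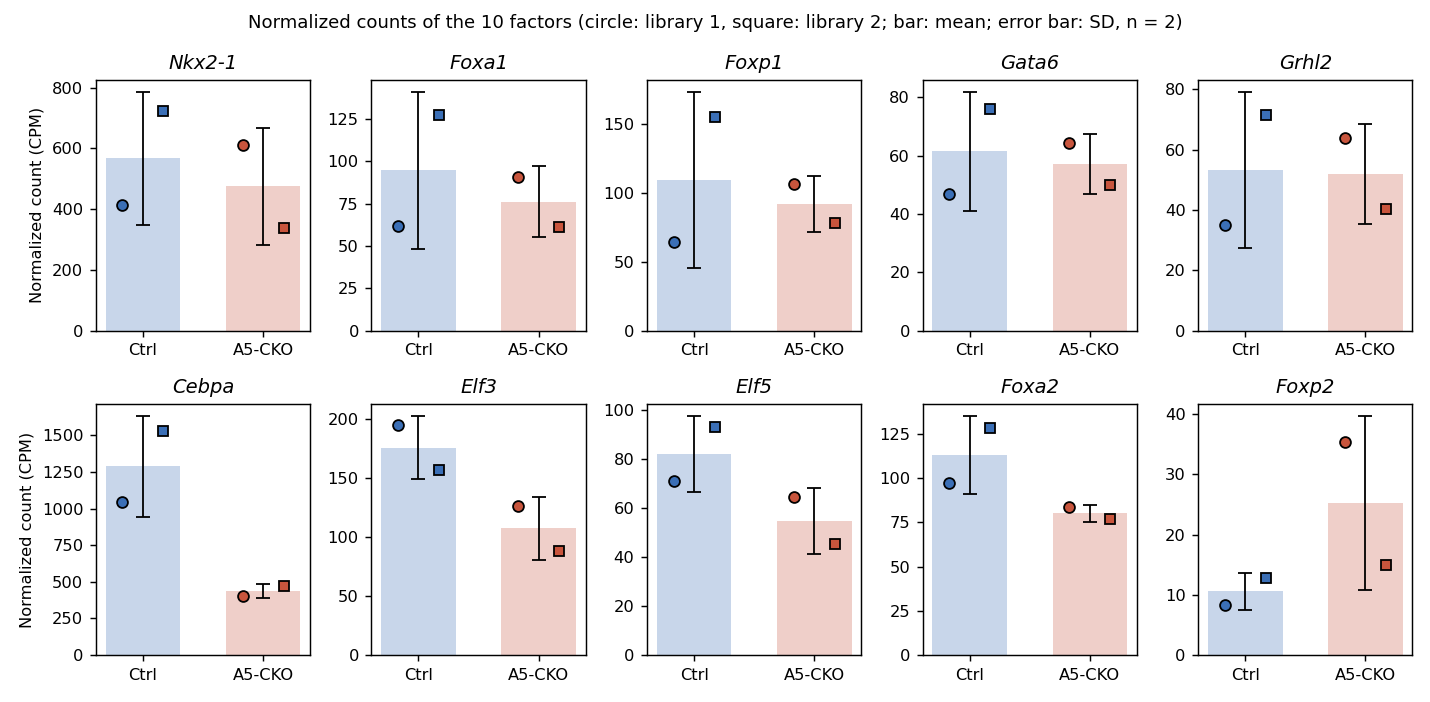
Level of each of the 10 factors in each library, in CPM, with bars for the mean, error bars for the SD (n = 2) and a point for each library. Both A5-CKO points lie below both Ctrl points for Cebpa, Foxa2, Elf3 and Elf5 and above them for Foxp2, and the points of the other 5 factors overlap.

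Counted by library, 4 of the 10 factors (Cebpa, Foxa2, Elf3 and Elf5) had both A5-CKO values below both Ctrl values, against 23.5% of all genes tested. Only 1 factor of 10, Foxp2, had both values above, against 20.3% of all genes. The log2 fold change was negative for 9 factors and positive for Foxp2, with a median of -0.29 over the 10 and -0.02 over all 16661 genes. At an unadjusted p under 0.05 there was 1 factor in each direction, Cebpa lower, where 4.71% of all genes were lower, and Foxp2 higher, where 4.48% were higher. The unadjusted p of Foxp2, 0.0462 by edgeR, was 0.0619 without a filter on low counts, 0.0786 with limma voom, 0.104 with the replicate block, and 0.188 with correction for GC content and length. With the other scalings, at least 10 counts in every library, the robust fit and both DESeq2 runs it was smaller. These values ran from 0.0176 (edgeR, total counts) to 0.0378 (robust edgeR fit). Without Ctrl replicate 2 the median of the factors was 0.19. With scaling by total counts alone the median over all genes was 0.30, and Nkx2-1, Foxa1, Gata6, Foxp1 and Grhl2 turned positive, while Cebpa, Foxa2, Elf3 and Elf5 kept their sign. In bulk RNA a smaller share of cells of a type and less RNA per cell cannot be told apart.

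Cebpa had 17664, 26328, 8919 and 11005 counts in the 4 libraries. These counts corresponded to 1045 and 1532 CPM in Ctrl and to 404 and 470 CPM in A5-CKO. The genotypes did not overlap, and the lower Ctrl library stood above the higher A5-CKO library by more than the A5-CKO libraries differed from each other. The mean was 1288 ± 345 CPM in Ctrl and 437 ± 47.1 CPM in A5-CKO (SD, n = 2), so Cebpa was 2.95-fold lower, with a log2 fold change of -1.56 (SE 0.38, 95% interval -2.46 to -0.66). The unadjusted p from edgeR ranked it at position 72 of all genes, and its adjusted p was 0.528 (edgeR, Benjamini-Hochberg).

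Cebpa was the only one of the 10 factors that DESeq2 called. Its adjusted p there was 0.0297 with default filtering and 0.0146 on the same genes as edgeR, and over the alternatives it ranged up to 0.878. The alternatives placed the log2 fold change from -1.75 to -1.22, the smallest with correction for GC content and length. Cebpa is a single-exon gene (chromosome 7, 35119293 to 35121928, + strand), and the GC content of its transcript, 62.6%, lies at percentile 98.7 of all genes with a value.

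Foxp2 was the factor with the opposite sign and the lowest depth, with 141, 219, 783 and 351 counts. In CPM it was at 8.34 and 12.7 in Ctrl, against 35.4 and 15.0 in A5-CKO. A5-CKO 1 stood far above the rest, while A5-CKO 2 was only a little above Ctrl 2. Foxp2 was 2.39-fold higher in A5-CKO, with a log2 fold change of 1.26 (SE 0.52, 95% interval 0.03 to 2.49) and an adjusted p of 0.528 by edgeR. Without A5-CKO replicate 1 the log2 fold change was 0.50, and with correction for GC content and length it was 0.73. Foxp2 (chromosome 6, 14901349 to 15441977, + strand, 19 exons) is a long and AT-rich member, at percentile 90.7 of all transcripts for length and 13.8 for GC content.

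Foxp1, its paralog, had the opposite sign and overlapped between genotypes, at 64.4 and 155 CPM in Ctrl and at 106 and 77.7 CPM in A5-CKO. Its log2 fold change was -0.25 (SE 0.45, edgeR adjusted p = 0.862), and it was -0.67 after correction for GC content and length. The ratio of Foxp2 to Foxp1 counts within a library was 0.129 and 0.0824 in Ctrl, against 0.335 and 0.193 in A5-CKO, so the ratios did not overlap. Foxp1 (chromosome 6, 98925342 to 99522746, - strand) spans several noncoding genes, among them Gm38865 with 2, 2, 35 and 20 counts and Gm52870 with 0, 1, 9 and 8 counts. Foxp4, the third member of this family that the lung epithelium uses, was at 187 and 260 CPM in Ctrl and at 153 and 110 CPM in A5-CKO, with a log2 fold change of -0.77 (unadjusted p = 0.0607 and adjusted p = 0.528 by edgeR).

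Both ETS factors were lower in A5-CKO without overlap. Elf3, which is active in epithelia and in their response to inflammation, was at 195 and 157 CPM in Ctrl and at 126 and 88.1 CPM in A5-CKO. Its log2 fold change was -0.71 (SE 0.33, 95% interval -1.49 to 0.06), with an unadjusted p of 0.0658 and an adjusted p of 0.528 by edgeR. With correction for GC content and length it was -0.39. Elf5, a factor of distal lung progenitors and secretory epithelia, was at 71.1 and 92.9 CPM in Ctrl and at 64.3 and 45.1 CPM in A5-CKO, with A5-CKO 1 close to Ctrl 1. Its log2 fold change was -0.58 (SE 0.32, 95% interval -1.35 to 0.18, edgeR adjusted p = 0.565), and the GC and length correction left it at -0.58. The ratio of Elf3 to Elf5 counts was 2.74 and 1.69 in Ctrl, against 1.97 and 1.95 in A5-CKO, and so overlapped.

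Among the forkhead factors of the endoderm, Foxa2 was lower in A5-CKO without overlap and Foxa1 was not. Foxa2 was at 97.3 and 129 CPM in Ctrl and at 83.7 and 76.9 CPM in A5-CKO, giving a log2 fold change of -0.49 (SE 0.30, edgeR adjusted p = 0.579). With correction for GC content and length the value was -0.19. Foxa1 was at 61.9 and 128 CPM in Ctrl and at 91.1 and 61.5 CPM in A5-CKO, so that its Ctrl libraries enclosed A5-CKO 1 and came close to A5-CKO 2. Its log2 fold change was -0.31 (SE 0.42, 95% interval -1.31 to 0.68, edgeR adjusted p = 0.808). The ratio of Foxa2 to Foxa1 counts was 1.57 and 1.01 in Ctrl, against 0.918 and 1.25 in A5-CKO, with overlap. Foxa1 shares 1326 bases with Ttc6, whose counts were 69, 91, 401 and 169, and no source used here says whether the counting used strand.

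Nkx2-1, the central factor of the group, had 6973, 12415, 13467 and 7934 counts, or 412 and 722 CPM in Ctrl and 610 and 339 CPM in A5-CKO. The genotypes overlapped, and the libraries of one genotype differed 1.75-fold in Ctrl and 1.80-fold in A5-CKO. Its log2 fold change was -0.26 (SE 0.45, 95% interval -1.32 to 0.80) with an adjusted p of 0.859 by edgeR. That interval holds changes of more than 1 on the log2 scale downward, so these libraries do not show that Nkx2-1 is the same in both genotypes.

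Gata6 and Grhl2 had the smallest differences of the 10 factors. Gata6 was at 47.0 and 76.0 CPM in Ctrl and at 64.5 and 49.8 CPM in A5-CKO, with a log2 fold change of -0.10 (SE 0.35, 95% interval -0.92 to 0.72, edgeR adjusted p = 0.929). Grhl2 was at 35.1 and 71.7 CPM in Ctrl and at 63.8 and 40.2 CPM in A5-CKO, with a log2 fold change of -0.04 (SE 0.43, 95% interval -1.06 to 0.98, edgeR adjusted p = 0.980). The antisense gene Gata6os, which shares 58 bases with Gata6, had 36, 36, 78 and 41 counts, and Gm16136, which shares 339 bases with Grhl2, had 384, 319, 560 and 290 counts.

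**Figure D2:**
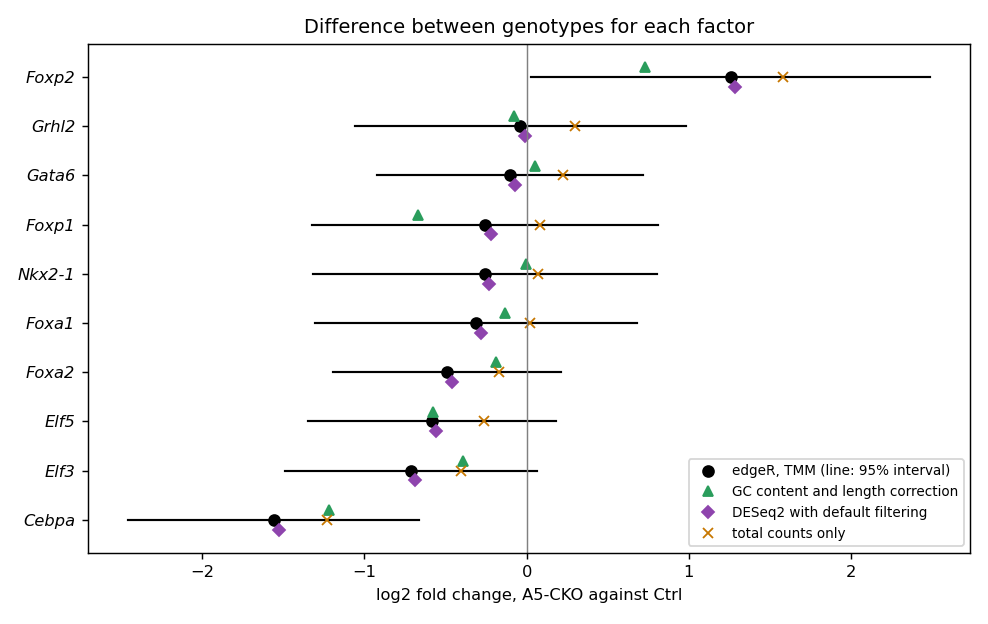
Log2 fold change of each factor (A5-CKO over Ctrl, edgeR) with its 95% interval. The interval lies below 0 for Cebpa (-2.46 to -0.66), just above 0 for Foxp2 (0.03 to 2.49), and spans 0 for the other 8 factors.

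Among libraries the factors followed a shared order that crossed the genotypes. Of the 10 factors, 8 were higher in Ctrl 2 than in Ctrl 1 and also higher in A5-CKO 1 than in A5-CKO 2, a pattern that 30% of the 16661 genes tested had. The exceptions were Cebpa, which was lower in A5-CKO 1 than in A5-CKO 2, and Elf3, which was higher in Ctrl 1 than in Ctrl 2. Foxp1 and Foxa1 were the closest pair, at a Euclidean distance of 0.207 between mean-centred log2 CPM over the 4 libraries. Nkx2-1 was nearest to Foxa1 at 0.259 and Grhl2 to Foxa1 at 0.271, while Gata6 was nearest to Grhl2 at 0.328. Foxa2 and Elf5 were nearest to each other at 0.296, and Elf3 was nearest to Elf5 at 0.511. Cebpa at 1.08 from Elf5 and Foxp2 at 1.25 from Grhl2 stood furthest from any other factor. Of all genes tested, Tspyl3 at 0.0190 and Ttc21b at 0.0288 had the patterns most like that of Nkx2-1.

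The marker lists of other states did not all keep to the genotypes either. The 12 mesenchymal markers, all above the filter, summed to 514 and 221 CPM in Ctrl and to 133 and 1180 CPM in A5-CKO, led by Col1a1 and Col1a2, with no marker at 0 in every library. The 18 transitional cell genes, led by Krt8 and Fn1, summed to 6143 and 2049 CPM in Ctrl and to 3212 and 6130 CPM in A5-CKO. Both sums were therefore lower in Ctrl 2 and A5-CKO 1, the libraries in which the 8 factors were higher. The 18 leukocyte markers, led by Lyz1 and S100a9, summed to 2765 and 2906 CPM in Ctrl and to 2097 and 2447 CPM in A5-CKO, again with none at 0 throughout. Lyz1, the largest part of that sum, was at 1461 and 2182 CPM in Ctrl and at 1581 and 732 CPM in A5-CKO. Of the macrophage and myeloid genes of the list, some ran the other way and some did not. C1qa, C1qb, Cd68, Adgre1, Mrc1, Marco, Itgax, Itgam and Csf1r, named after their values were seen, were lower in Ctrl 2 and A5-CKO 1. C1qa was at 164 and 8.90 CPM in Ctrl and at 12.2 and 203 CPM in A5-CKO. S100a8 and S100a9 were instead higher in Ctrl 2 than in Ctrl 1, and lower in A5-CKO 1 than in A5-CKO 2. S100a9 was at 173 and 285 CPM in Ctrl and at 120 and 295 CPM in A5-CKO. Ptprc was at 50.9 and 22.5 CPM in Ctrl and at 84.3 and 82.8 CPM in A5-CKO. The 12 endothelial markers, of which Cldn5 was at 0 in every library, summed to 234 and 311 CPM in Ctrl and to 151 and 309 CPM in A5-CKO. The 9 club cell markers summed to 5169 and 4846 CPM in Ctrl and to 3196 and 2835 CPM in A5-CKO. Of the 11 ciliated cell markers the 10 tested summed to 175 and 169 CPM in Ctrl and to 150 and 59.3 CPM in A5-CKO. The part of these other cells in the levels of the factors was not tested.

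**Figure D3:**
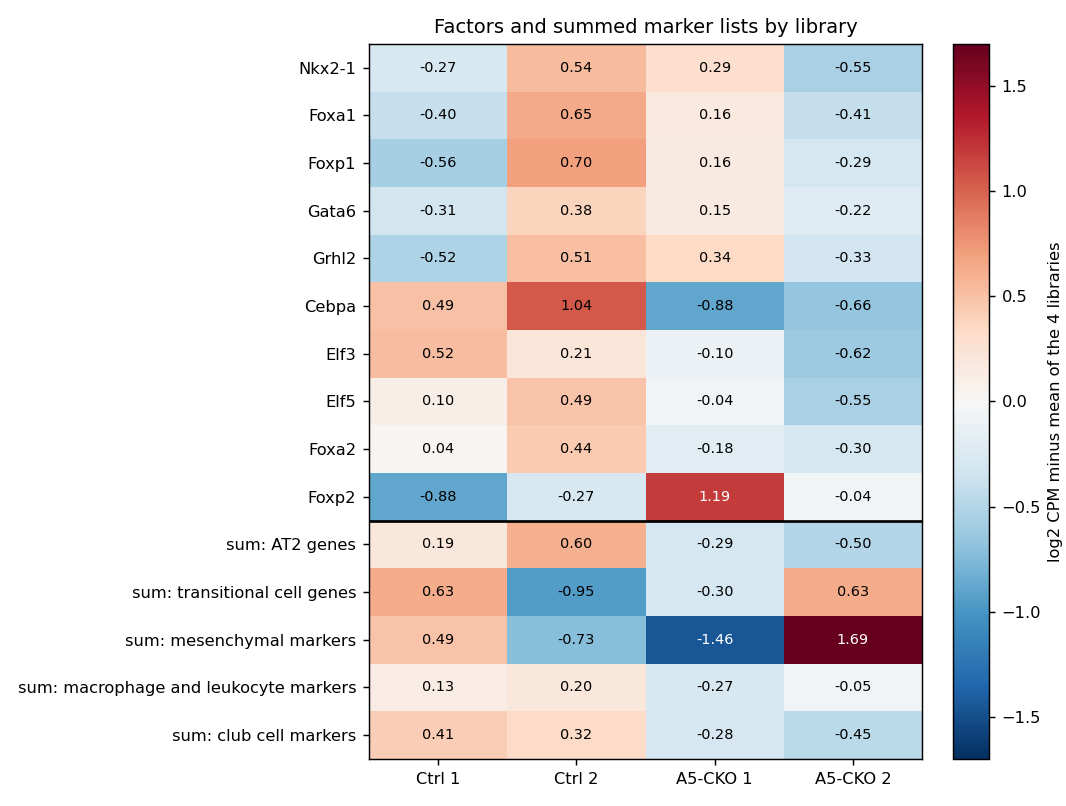
Level of each factor and of 5 summed marker lists in each library, as log2 CPM minus the mean over the 4 libraries. From left to right Nkx2-1 reads -0.27, 0.54, 0.29 and -0.55, and the mesenchymal sum reads 0.49, -0.73, -1.46 and 1.69 in that order.

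Because the level of Nkx2-1 itself differed between libraries, the counts of each other factor were also set against it within a library. Cebpa had 2.53 and 2.12 counts per count of Nkx2-1 in Ctrl, against 0.662 and 1.39 in A5-CKO. Foxp2 had 0.0202 and 0.0176 in Ctrl, against 0.0581 and 0.0442 in A5-CKO, so that both A5-CKO libraries stood clear of Ctrl on this ratio. Grhl2 had 0.0850 and 0.0992 in Ctrl, against 0.105 and 0.118 in A5-CKO, a small difference without overlap. On this ratio 2 of the 9 factors had both A5-CKO values above both Ctrl values, close to the 21.3% of the other 16660 genes tested that did so. Cebpa was the 1 factor with both values below, as were 4.45% of all these genes, and the ratios were not tested.

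The other 6 factors overlapped between genotypes on the same ratio. Foxa1 to Nkx2-1 had the narrowest range of these, from 0.149 to 0.181 over the 4 libraries. Foxp1 ranged from 0.156 to 0.229, Gata6 from 0.105 to 0.147 and Foxa2 from 0.137 to 0.236. Elf3, at 0.472 and 0.217 in Ctrl, against 0.207 and 0.260 in A5-CKO, and Elf5, at 0.172 and 0.129 in Ctrl, against 0.105 and 0.133 in A5-CKO, were lower than Ctrl by CPM but not by this ratio.

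**Figure D4:**
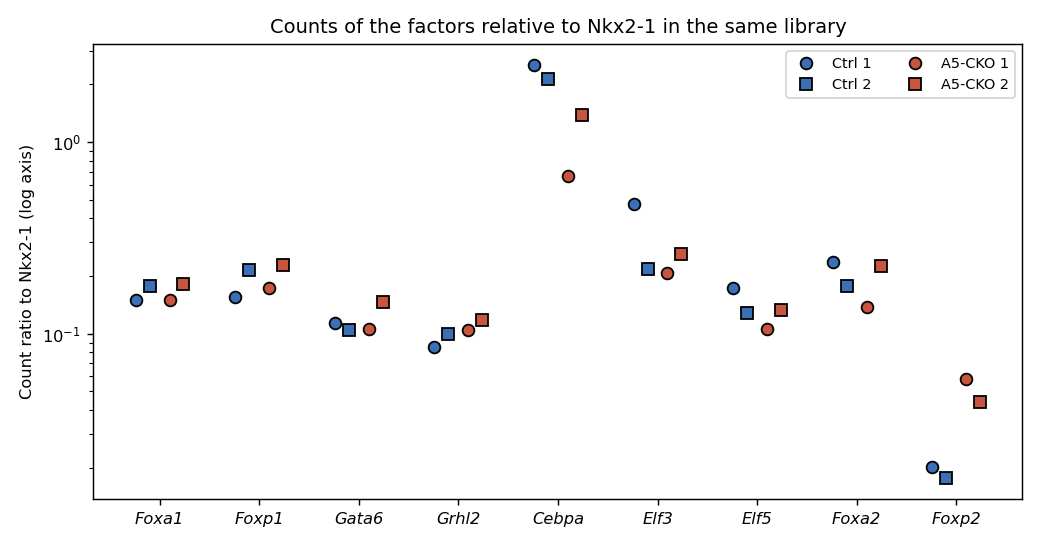
Counts of each of the other 9 factors per count of Nkx2-1 in the same library, on a log axis, with Ctrl and A5-CKO libraries marked. The points separate by genotype for Cebpa, Foxp2 and Grhl2 and overlap for the other 6 factors. Over all genes 21.3% lay above and 4.45% below Ctrl without overlap on this ratio.

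Of the 24 paralogs on the list 15 passed the filter, which shows their RNA in these libraries and not the cells it came from. Their median log2 fold change was 0.01, with 4 of the 15 higher and 3 lower in both A5-CKO libraries, against 20.3% and 23.5% of all genes. Cebpb, a stress-induced relative of Cebpa, was at 199 and 149 CPM in Ctrl and at 103 and 154 CPM in A5-CKO, with overlap and a log2 fold change of -0.44. The ratio of Cebpa to Cebpb counts was 5.24 and 10.3 in Ctrl, against 3.93 and 3.05 in A5-CKO. Cebpd, which is induced by glucocorticoids, was at 194 and 235 CPM in Ctrl and at 153 and 107 CPM in A5-CKO, with a log2 fold change of -0.72 (unadjusted p = 0.0648 and adjusted p = 0.528 by edgeR). Cebpg was at 124 and 90.1 CPM in Ctrl and at 99.6 and 89.6 CPM in A5-CKO, so Cebpa and Cebpd were the members of the family that did not overlap.

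The ubiquitous ETS factor Elf1 was at 58.1 and 80.5 CPM in Ctrl and at 108 and 83.9 CPM in A5-CKO, with a log2 fold change of 0.47, the opposite sign to Elf3 and Elf5. Elf2 was at 55.7 and 71.4 CPM in Ctrl and at 77.1 and 63.1 CPM in A5-CKO, and Elf4 was at 18.6, 14.5, 12.9 and 28 CPM. Grhl1, at 4.97 and 7.16 CPM in Ctrl and at 7.65 and 9.53 CPM in A5-CKO, and Grhl3, at 1.89 and 0.582 CPM in Ctrl and at 2.44 and 4.57 CPM in A5-CKO, were far below Grhl2 in CPM. Their log2 fold changes were 0.50 and 1.501. Foxa3 was low, at 3.13 and 1.75 CPM in Ctrl and at 1.13 and 1.54 CPM in A5-CKO. Of the remaining tested paralogs, Gata2, Gata3, Gata5, Foxp3 and Nkx2-9 lay between 0.598 and 17.8 CPM. Nkx2-3, Nkx2-4 and Nkx2-5 were at 0 counts in every library, below the floor of 3 counts.

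Most of the genes that define AT2 cells were lower in both A5-CKO libraries, as Cebpa was. All 20 on the list were tested, and all 20 had a negative log2 fold change, with a median of -0.84. In both A5-CKO libraries 15 were lower and 0 higher, against 23.5% and 20.3% of all genes, but 0 had an edgeR adjusted p under 0.05. Abca3, Lamp3, Etv5, Ctsh and Hc overlapped between genotypes. Summed, the 20 were at 113564 and 151344 CPM in Ctrl and at 81408 and 70577 CPM in A5-CKO. Fabp5, a fatty acid binding protein, was at 1562 and 961 CPM in Ctrl and at 384 and 314 CPM in A5-CKO (unadjusted p = 0.00253 by edgeR's quasi-likelihood test). Napsa, an aspartic protease that processes surfactant proteins, had a log2 fold change of -1.13. Of the surfactant genes, Sftpc had -0.81, Sftpa1 -0.83 and Sftpb -1.12, the last from its main-chromosome row, since a further row on a fix patch held 25108, 42356, 22208 and 23312 counts. Lower values were not particular to AT2 genes. The 10 ciliated cell markers tested had a median of -1.06, with 7 lower and 0 higher in both A5-CKO libraries, against the same 23.5% and 20.3% of all genes.

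Genes of AT1 and transitional cells had mostly positive values. Of 16 AT1 genes 14 were tested (not Ager and Pdpn, 2 defining markers of AT1 cells, which were below the filter), with a median log2 fold change of 0.60. In both A5-CKO libraries 8 were higher and 1 lower, against 20.3% and 23.5% of all genes. Those with the smallest unadjusted p were Col4a3 at 1.25, Spock2 at 1.30 and Vegfa at 0.98. The 1 lower was Aqp5, with -0.79, at 981 and 951 CPM in Ctrl and at 479 and 636 CPM in A5-CKO. Summed, the 14 were at 4760 and 5580 CPM in Ctrl and at 5302 and 5311 CPM in A5-CKO, so the sums overlapped. Of 18 transitional cell genes the median was 0.54, with 5 higher and 0 lower (20.3% and 23.5% of all genes). The 5 were led by Mdm2 at 1.23, Hbegf at 1.27 and Areg at 1.13. In both lists 0 genes passed edgeR's adjusted p. Without Ctrl replicate 2 the transitional median was -0.11 and without A5-CKO replicate 2 it was -0.26, so its sign rests on those libraries.

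Other regulators of the lung epithelium gave no common direction, with 26 of 27 tested and a median of 0.02. In both A5-CKO libraries 5 were higher and 4 lower, against 20.3% and 23.5% of all genes. Srebf1, the sterol and fatty acid regulator that promotes lipid synthesis in AT2 cells, was at 622 and 767 CPM in Ctrl and at 291 and 314 CPM in A5-CKO, giving a log2 fold change of -1.20 (unadjusted p = 0.00891 by edgeR's quasi-likelihood test). The factor of ciliated cells Foxj1 had -1.51.

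Loss of Nkx2-1 is known to let gastric and hindgut genes appear in lung cells, and 20 such genes were looked at. Only 9 passed the filter, with a median log2 fold change of 0.10. In both A5-CKO libraries 3 were higher and 1 lower, against 20.3% and 23.5% of all genes. With any 1 library left out the median was higher, from 0.36 to 1.43. The filter was applied anew in those fits, so the genes behind these medians could differ from the 9. Regulators of that programme were at or near 0, with Hnf4a at 12, 2, 12 and 8 counts and Hnf4g at 0, 0, 0 and 3 counts. Pdx1 and Cdx2 were at 0 in every library. The gastric mucin Muc6 had 4, 10, 46 and 48 counts and Lgals4 had 35, 37, 263 and 70 counts, with log2 fold changes of 2.32 and 1.82 (edgeR adjusted p = 0.528 for each). Of the 9 tested genes 5 had a positive and 4 a negative value, and Pigr was the 1 lower without overlap. Pigr had -1.21, at 467 and 413 CPM in Ctrl and at 297 and 84.2 CPM in A5-CKO. Summed, the 9 were at 512 and 439 CPM in Ctrl and at 350 and 115 CPM in A5-CKO, led by Pigr.

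Genes of epithelial adhesion, some of them known targets of Grhl2, were lower on balance, with 19 of 20 tested and a median log2 fold change of -0.25 (0.077 with scaling by total counts). In both A5-CKO libraries 2 were higher and 8 lower, against 20.3% and 23.5% of all genes. Cdh1, the epithelial cadherin, had -0.35 and Epcam -0.15. Rab25, a regulator of membrane recycling, had -0.92 and the claudin Cldn3 had -0.87, while Grhl2 itself had -0.04.

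**Figure D5:**
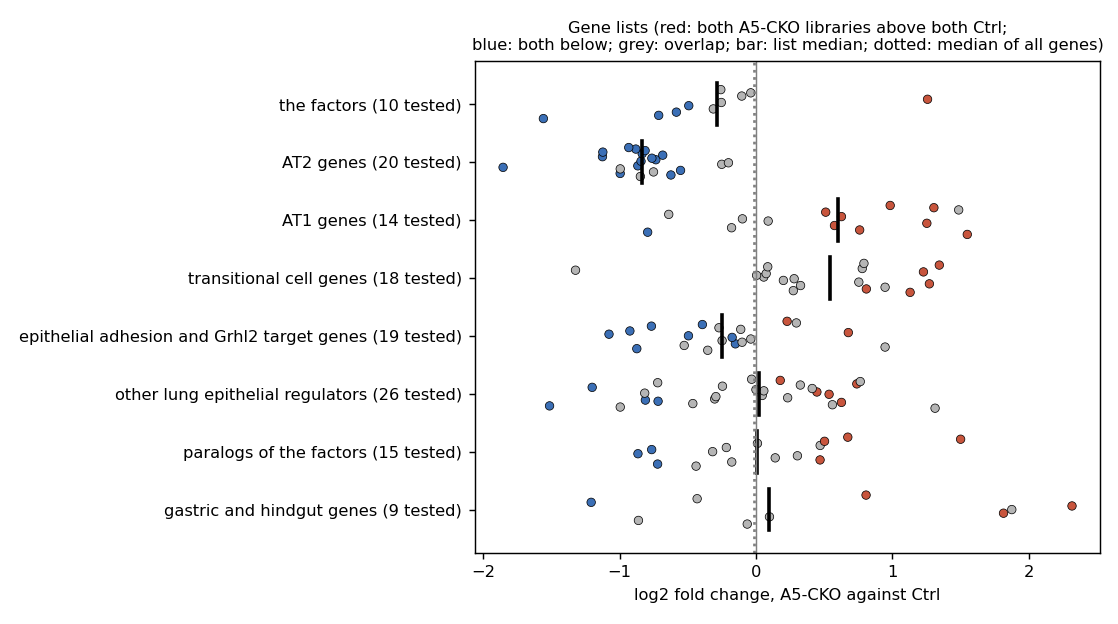
Log2 fold change (A5-CKO over Ctrl, edgeR) of each tested gene in the lists named, with a bar at each list's median and colour for genes whose A5-CKO libraries both lie above (red) or below (blue) Ctrl. The factors have a median of -0.29, AT2 genes of -0.84, AT1 genes of 0.60 and transitional cell genes of 0.54.

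The factors differ in the sequence of their transcripts, which the choice of members did not use. The m6A mark is placed mainly at GGACT and similar 5-letter sequences, and the longest annotated transcripts of the 10 factors held from 1 to 8 copies of GGACT. Elf3 had the highest density, 2.39 per kb at percentile 93.9 of all genes with a value, and Foxp1 and Foxa2 the lowest, 0.418 and 0.470 per kb at percentiles 15.7 and 17.9. Cebpa had 1.52 and Foxp2 1.18 per kb, at percentiles 75.5 and 59.4. No measurement of m6A was analysed here.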

How the data were processed

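The authors' deposited file holds raw read counts per gene for 4 libraries, 2 Ctrl and 2 A5-CKO. Per the labels and the paper's methods, reads were trimmed (Trim Galore 0.6.10), aligned to mm10 (HISAT2 2.2.1), stripped of duplicates and counted (featureCounts 2.0.3). The methods give the counting under another assay, and the strand setting is not given in the sources used here. The columns are headed WT and KO and were matched to Ctrl and A5-CKO by genotype and replicate number. From the counts, edgeR 4.0.16 (R 4.3.3) was run with TMM factors, filterByExpr, glmQLFit and glmQLFTest over all genes, with Benjamini-Hochberg adjustment, after being tested on simulated data. The common dispersion was 0.173 (coefficient of variation 41.6%). Alternatives were other scalings and filters, a robust fit, DESeq2 1.42.0, limma voom 3.58.1, the replicate number as a block, each library left out in turn, and splines (4 degrees of freedom) on GC content and length over 15237 genes.

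The counts of both Ctrl libraries, and of both A5-CKO libraries, differed beyond sampling noise (chi-square over its degrees of freedom 120 and 111). With 2 libraries a group, permutation cannot give a p below 0.333. Merged exons and longest transcripts come from GENCODE M21, positions and promoters from RefSeq (GRCm38.p6). The members, gene lists and alternatives were chosen with earlier results of these data known. Named genes are all 10 factors, Alkbh5, the tested paralogs, overlapping genes, the first genes of 3 lists, the genes most like Nkx2-1, and up to 4 genes a direction per list with the smallest unadjusted p under 0.05 and no overlap, of which the text names some. Genes that lead a marker sum, genes at 0 or below the filter, Aqp5, Pigr, the AT2 genes that overlapped, and C1qa with the other leukocyte markers were named after their values were seen. Floors cover counting error only. An item that the rule would name is not reported here.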

Additional observations from a re-analysis of the deposited data

How the results depend on the processing

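Of the alternatives to edgeR's fit listed in the methods, only DESeq2 gave calls. It called 64 of the genes edgeR tested, and 59 under its own filtering, and of the factors it called only Cebpa, at -1.51 and -1.52. A replicate block gave 0.013 for Grhl2 and called no gene, with 754 genes at an unadjusted p under 0.05. The block turned no other factor's direction and changed no adjusted call of a factor. Same-numbered libraries had deviations correlated at -0.35, so the numbers were not taken to pair them, and a crossed pairing (crossed replicate block), chosen after seeing the data, called 230 genes.

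Scaling by total counts moved the median of all genes to 0.30. It gave 0.072 for Nkx2-1, 0.022 for Foxa1, 0.22 for Gata6, 0.085 for Foxp1 and 0.30 for Grhl2, and list medians of -0.50 for AT2 genes, 0.91 for AT1 genes, 0.33 for paralogs, 0.34 for other regulators, 0.077 for adhesion genes, 0.043 for club and -0.73 for ciliated markers. Correction for GC content and length gave 0.051 for Gata6, 0.45 for AT1 genes and -0.069 for adhesion genes. Grhl2 was also positive with RLE factors (0.011), upper-quartile factors (0.066), DESeq2 on the genes edgeR tested (0.011), limma voom (0.012) and at least 10 counts in every library (0.0096). The median of paralogs was 0.059 with RLE factors, 0.11 with upper-quartile factors, 0.059 and 0.043 with both DESeq2 runs and 0.056 with at least 10 counts.

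Leaving out 1 library at a time, the log2 fold change ranged from -0.75 to 0.15 for Nkx2-1, from -0.69 to 0.25 for Foxa1, from -0.36 to 0.24 for Gata6, from -0.70 to 0.46 for Foxp1 and from -0.42 to 0.52 for Grhl2. The highest value of each came without Ctrl replicate 2. The lone library left in a group is assumed to vary like the other group. The filter was applied anew in each fit, so the genes behind a list median could differ between fits. Medians ranged from -0.60 to 0.19 for the factors, from -0.999 to -0.59 for AT2 genes, from 0.40 to 0.91 for AT1 genes, from -0.26 to 1.65 for transitional cell genes, from -0.16 to 0.13 for paralogs, from 0.36 to 1.43 for gastric genes, from -0.30 to -0.13 for adhesion genes, from -0.996 to 0.83 for leukocyte markers, from -1.33 to 1.61 for mesenchymal markers, from -0.50 to 0.24 for endothelial markers, from -0.69 to 0.0041 for club markers, and from -1.31 to -0.90 for ciliated markers. The causes of these differences were not tested.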
